A study of Homo sapiens with 10 samples.

Results

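Aldo-keto reductases and aldehyde dehydrogenases were followed through 10 genes: AKR1B1, AKR1B10, AKR1C1, AKR1C2, AKR1C3, ALDH1A1, ALDH1A3, ALDH3A1, ALDH3A2 and ALDH3B1. A gene was read from the probe sets that the platform annotation gives to that symbol alone, and it was represented by whichever of these was brightest in the mean log2 signal of the 10 arrays. In this way 9 of the 10 genes were measured, through 20 probe sets, among 19775 genes with such a probe set. AKR1B1 was not analysed here. All 9 were among the 12514 genes tested, whose mean log2 signal reached 6.06, a signal of 66.7. AKR1C2, AKR1C3, ALDH1A1 and ALDH3A1 reached that mean only through their signal in A549, so for these 4 a difference between the lines follows in part from the filter.

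The study asked which genes depend on ID1, a partner of basic helix-loop-helix factors that stops them from binding DNA. It used A549, a non-small cell lung carcinoma line with mutant k-Ras, and H1650, one with mutant EGFR. The cells of every group carried an siRNA and had been deprived of serum for 48 h. In each line the groups were ID1 siRNA with nicotine, control siRNA with nicotine, ID1 siRNA with EGF, control siRNA with EGF, and control siRNA with no stimulus. Nicotine was given at 1 µM and EGF, epidermal growth factor, at 100 ng/ml, each for 18 h. There was n = 1 array per line and group, and no array combined ID1 siRNA with the absence of a stimulus. Nothing in the labels says that the arrays came from separate cultures, so p-values measure only the spread between these arrays, which may be technical.

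Both enzyme families clear reactive carbonyl compounds. Aldo-keto reductases turn aldehydes and ketones, among them retinal, steroids, prostaglandins and products of lipid peroxidation, into alcohols with NADPH. Aldehyde dehydrogenases oxidise aldehydes to acids, among them retinal to retinoic acid. Several are known to be switched on by NRF2, which answers to electrophiles and is held in check by KEAP1. In the airway they are known as genes that rise in smokers, and the tobacco carcinogen NNK is among the substrates of AKR1C enzymes.

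The values were linear MAS5 signals, each array scaled to a trimmed mean of 500, and array medians lay between 61.2 and 79.6. ID1, the target of the siRNA, had signals of 1343 and 1343 with ID1 siRNA in A549, under nicotine and EGF, against 3720 and 3049 with control siRNA. With control siRNA and no stimulus ID1 stood at 1645 in A549, closer to its signal with ID1 siRNA. In H1650 it had 881 and 1031 with ID1 siRNA, against 4964 and 5121 with control siRNA. ID1 was lower in all 4 matched pairs, by -1.33 ± 0.11 on the log2 scale in A549 (SE, limma adjusted p = 0.000105) and -2.40 ± 0.11 in H1650 (SE, limma adjusted p = 8.66e-05). Among markers of the labelled cells, the epithelial genes KRT8, KRT18, KRT7, KRT19, EPCAM and CDH1 were above the array median on all 10 arrays. Of the lung lineage genes, NKX2-1 and SCGB1A1 were below it on all 10 and SFTPB and SFTPC above it on all 10, the last at signals of at most 306. Of 9 markers of fibroblasts, vessels and blood cells, COL1A1 and PECAM1 were above the median on all 10 arrays, DCN on 9 and PTPRC on 0. Their summed signal lay between 698 and 1392 in A549 and between 996 and 1733 in H1650. The A549 array with control siRNA and EGF stood apart from the others: its 529 genes with a mean signal over 10000 had a median log2 signal 0.54 above the other A549 arrays. On the other A549 arrays this median lay between -0.29 and -0.06, and on the H1650 arrays, over 427 such genes, between -0.06 and 0.12. The members' changes with ID1 siRNA in A549 are therefore given for each pair, since the nicotine pair does not use that array.

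Between the lines, AKR1B10, the 3 AKR1C genes, ALDH1A1 and ALDH3A1 had signals over 10000 on every A549 array and were dim or near background in H1650. ALDH3B1 and ALDH3A2 were higher in A549 by smaller factors, and ALDH1A3 was lower in A549. The limma test passed for 9 of the 9 members, 8 higher and 1 lower, at an adjusted p under 0.05 over all tested genes. It also passed for 63.1% of all genes tested, 30.9% higher and 32.2% lower. Among the 8 higher members are AKR1C2, AKR1C3, ALDH1A1 and ALDH3A1, which the filter kept only through A549. Their calls carry no separate weight. The members were also chosen with earlier results of these data known. The median log2 difference was 7.56 over the 9 members and -0.03 over all genes tested. The members' median also counts AKR1C2, AKR1C3, ALDH1A1 and ALDH3A1, so it follows in part from the filter. Setting the 3 members dim on every H1650 array to their bounds, between 8.07 and 8.40, could not move it, since all lie above 7.56. The members outside that filter effect had 7.56 for AKR1C1, 6.68 for AKR1B10, 2.53 for ALDH3B1, 0.98 for ALDH3A2 and -1.35 for ALDH1A3. Leaving out each of the 10 arrays in turn kept all 9 calls. A lower signal can come from fewer cells with the transcript or from less of it per cell, which cannot be told apart on such arrays.

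**Figure D1:**
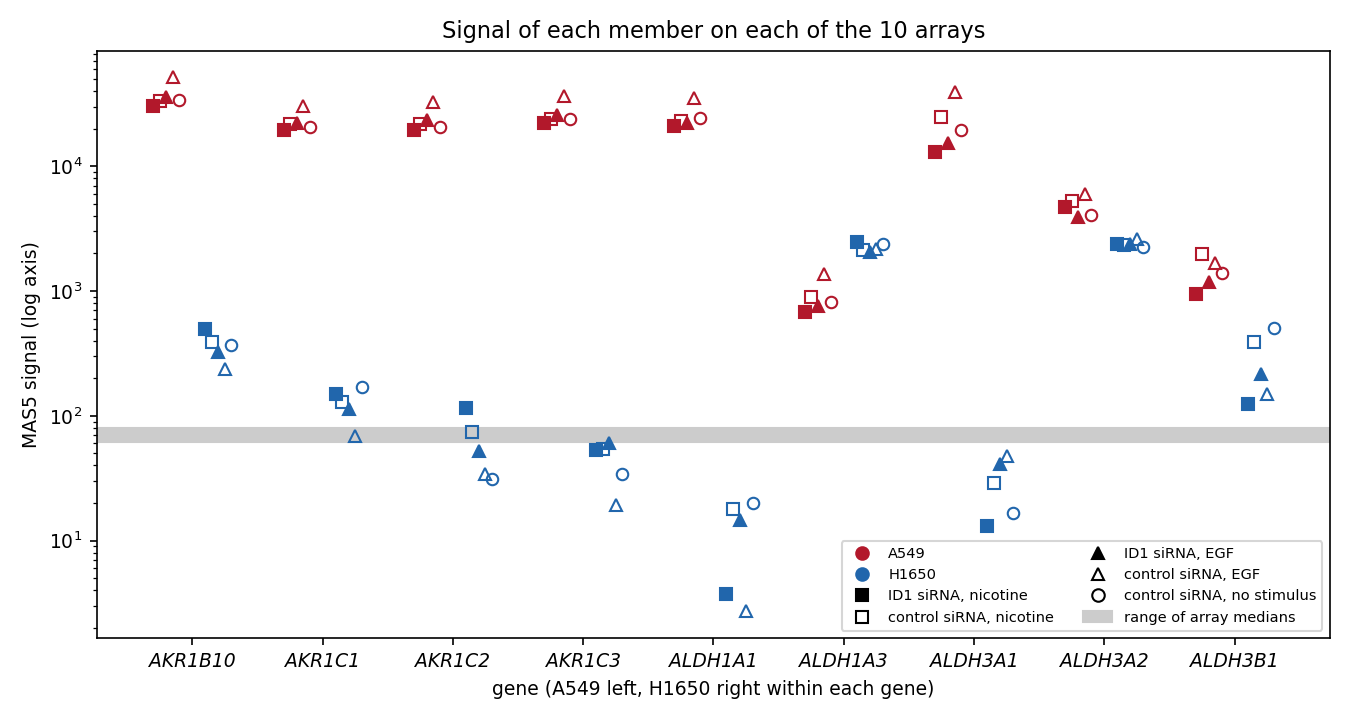
Signal (log axis) of the 9 measured genes on each of the 10 arrays, A549 in the left part of each gene and H1650 in the right, with 1 point per array. In A549 6 of the genes lie above 10000 on every array, while in H1650 they lie below 500, and ALDH1A3 is the gene that is lower in A549.

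AKR1B10 reduces retinal and other aldehydes and is known as a marker of smoking-related lung carcinoma. In A549 its signal was 30642 with ID1 siRNA and nicotine, 33175 with control siRNA and nicotine, 35576 with ID1 siRNA and EGF, 51467 with control siRNA and EGF, and 33963 without a stimulus. In H1650 it was 498 with ID1 siRNA and nicotine, 391 with control siRNA and nicotine, 326 with ID1 siRNA and EGF, 239 with control siRNA and EGF, and 368 without a stimulus. Every A549 array was far above every H1650 array. The log2 difference was 6.68 ± 0.22 (SE, limma adjusted p = 9.94e-08, n = 5 arrays per line), a 103-fold higher level in A549. In the same condition the fold ran between 61.5 with ID1 siRNA and nicotine and 215 with control siRNA and EGF.

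The AKR1C genes encode hydroxysteroid dehydrogenases that lie side by side on chromosome 10. AKR1C1 inactivates progesterone, AKR1C2 inactivates dihydrotestosterone, and AKR1C3 makes testosterone and prostaglandin F. On GRCh38.p14 AKR1C1 spans chr10:4963415-4983283, AKR1C2 spans chr10:4987775-5018000, and AKR1C3 spans chr10:5048781-5107686. AKR1C1 ends 4491 bases before AKR1C2 begins, and 30780 bases separate AKR1C2 and AKR1C3. Promoters of the 3 genes are shown because closely similar genes are hard to separate by short probes. Their brightest probe sets also had the same brightest and dimmest A549 array, as did other members. Each sequence runs over the 250 bases before and 50 bases after a transcription start that the RefSeq-derived promoter table gives, read 5′ to 3′ on the gene's own strand. Capitals mark E-boxes (CANNTG, which reads the same on both strands), the sites of the basic helix-loop-helix factors that ID1 binds. AKR1C1 is at chr10:4963165-4963464 on the plus strand, AKR1C2 at chr10:5003808-5004107 on the minus strand, and AKR1C3 at chr10:5048531-5048830 on the plus strand. The AKR1C2 window lies inside the full span of the gene, downstream of its outermost start.
AKR1C1: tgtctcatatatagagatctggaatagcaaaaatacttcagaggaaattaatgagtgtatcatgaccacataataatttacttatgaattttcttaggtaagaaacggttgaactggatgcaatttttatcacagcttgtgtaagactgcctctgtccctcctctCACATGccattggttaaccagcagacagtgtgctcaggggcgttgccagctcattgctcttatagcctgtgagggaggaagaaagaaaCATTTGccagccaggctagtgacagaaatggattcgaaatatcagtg
AKR1C2: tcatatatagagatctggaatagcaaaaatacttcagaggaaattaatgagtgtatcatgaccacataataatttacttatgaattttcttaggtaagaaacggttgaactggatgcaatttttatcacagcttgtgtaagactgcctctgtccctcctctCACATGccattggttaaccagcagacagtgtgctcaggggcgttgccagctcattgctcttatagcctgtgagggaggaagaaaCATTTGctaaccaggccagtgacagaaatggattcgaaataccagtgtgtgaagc
AKR1C3: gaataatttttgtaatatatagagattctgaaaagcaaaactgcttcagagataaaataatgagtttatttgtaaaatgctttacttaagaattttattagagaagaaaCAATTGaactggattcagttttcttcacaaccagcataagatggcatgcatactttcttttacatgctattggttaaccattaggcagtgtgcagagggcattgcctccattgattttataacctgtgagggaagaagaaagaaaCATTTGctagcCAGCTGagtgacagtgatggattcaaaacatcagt

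The AKR1C1 and AKR1C2 promoters had 288 identical bases in 296 aligned (97.3%). AKR1C3 shared 75.7% of aligned bases with AKR1C1 and 74.3% with AKR1C2. AKR1C1 and AKR1C2 each held 2 E-boxes, CACATG upstream of the start and CATTTG at it, while AKR1C3 held 3 and lacked CACATG. Over the 12 promoters that the table lists for 8 of the 10 genes, 10 held an E-box, a motif present in 68.7% of all 35116 promoters of that length. The core of the antioxidant response element (TGACNNNGC, either strand), through which NRF2 acts, was in 0 of the 12 and in 13.3% of all promoters. The core of the xenobiotic response element (GCGTG, either strand), the site of the aryl hydrocarbon receptor, was in 4 of the 12 and in 36.5% of all promoters. The 12 windows are not all separate. The 2 of AKR1B1, a gene not analysed here, overlap and hold the same E-box and the same GCGTG core. Those of AKR1C1 and AKR1C2 are nearly alike, as given above. A match says only that these letters are in the window, and a missing match says nothing about sites elsewhere.

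AKR1C1 had signals in A549 of 19602 with ID1 siRNA and nicotine, 21729 with control siRNA and nicotine, 22053 with ID1 siRNA and EGF, 30407 with control siRNA and EGF, and 20701 without a stimulus. In H1650 the values were 150 with ID1 siRNA and nicotine, 128 with control siRNA and nicotine, 113 with ID1 siRNA and EGF, 68.2 with control siRNA and EGF, and 169 without a stimulus. The lines did not overlap, and the H1650 array with control siRNA and EGF was below its array's median. AKR1C1 was higher in A549 by a log2 difference of 7.56 ± 0.24 (SE, limma adjusted p = 8.98e-08), or 188-fold.

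AKR1C2 ran in A549 at 19345 with ID1 siRNA and nicotine, 21937 with control siRNA and nicotine, 23382 with ID1 siRNA and EGF, 32832 with control siRNA and EGF, and 20463 without a stimulus. In H1650 it ran at 116 with ID1 siRNA and nicotine, 74.8 with control siRNA and nicotine, 52.2 with ID1 siRNA and EGF, 34.0 with control siRNA and EGF, and 31.3 without a stimulus. Only the H1650 array with ID1 siRNA and nicotine exceeded its array median, so the H1650 level is close to background. The log2 difference was 8.73 ± 0.31 (SE, limma adjusted p = 1.67e-07), or 425-fold as measured and 279-fold with dim H1650 values set to their array median.

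AKR1C3 in A549 gave 22202 with ID1 siRNA and nicotine, 24052 with control siRNA and nicotine, 25528 with ID1 siRNA and EGF, 36679 with control siRNA and EGF, and 23976 without a stimulus. The 5 H1650 signals lay between 19.2 and 60.6, all below their array medians, so only a bound can be given. AKR1C3 was at least 338-fold higher in A549 (limma adjusted p = 8.98e-08). In A549 the 3 AKR1C genes and AKR1B10 had the same brightest array, control siRNA with EGF, and the same dimmest array, ID1 siRNA with nicotine. ALDH1A1, ALDH1A3 and ALDH3A1 had the same extremes. The 529 bright genes of A549 also had their highest and lowest medians on these arrays, at 0.54 and -0.29 against the other A549 arrays.

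The probe sets of the AKR1C genes did not all behave alike. The suffix _x_ marks probe sets that the manufacturer expected to cross-hybridise. In A549, 5 of them had mean signals over 10000, namely 2 with that suffix for AKR1C1, 2 with it for AKR1C2, and the AKR1C3 probe set, which has none. All 5 were highest on the array with control siRNA and EGF. The brightest AKR1C1 probe set without such a suffix was lowest there. It gave 1906 with ID1 siRNA and nicotine, 1695 with control siRNA and nicotine, 1902 with ID1 siRNA and EGF, 936 with control siRNA and EGF, and 1558 without a stimulus. A probe set annotated to both AKR1C2 and AKR1C1 was also lowest there. It gave 8159 with ID1 siRNA and nicotine, 6457 with control siRNA and nicotine, 7441 with ID1 siRNA and EGF, 4311 with control siRNA and EGF, and 7937 without a stimulus. These probe sets were thus higher with ID1 siRNA in both A549 pairs, by a log2 of 0.17 and 1.02 for the first and 0.34 and 0.79 for the shared one, where the bright probe sets were lower. The remaining 3 probe sets of AKR1C1 and AKR1C2 were below the array median on at least 9 of the 10 arrays. Signals of AKR1C1 and AKR1C2 cannot be told apart with certainty on these arrays.

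**Figure D2:**
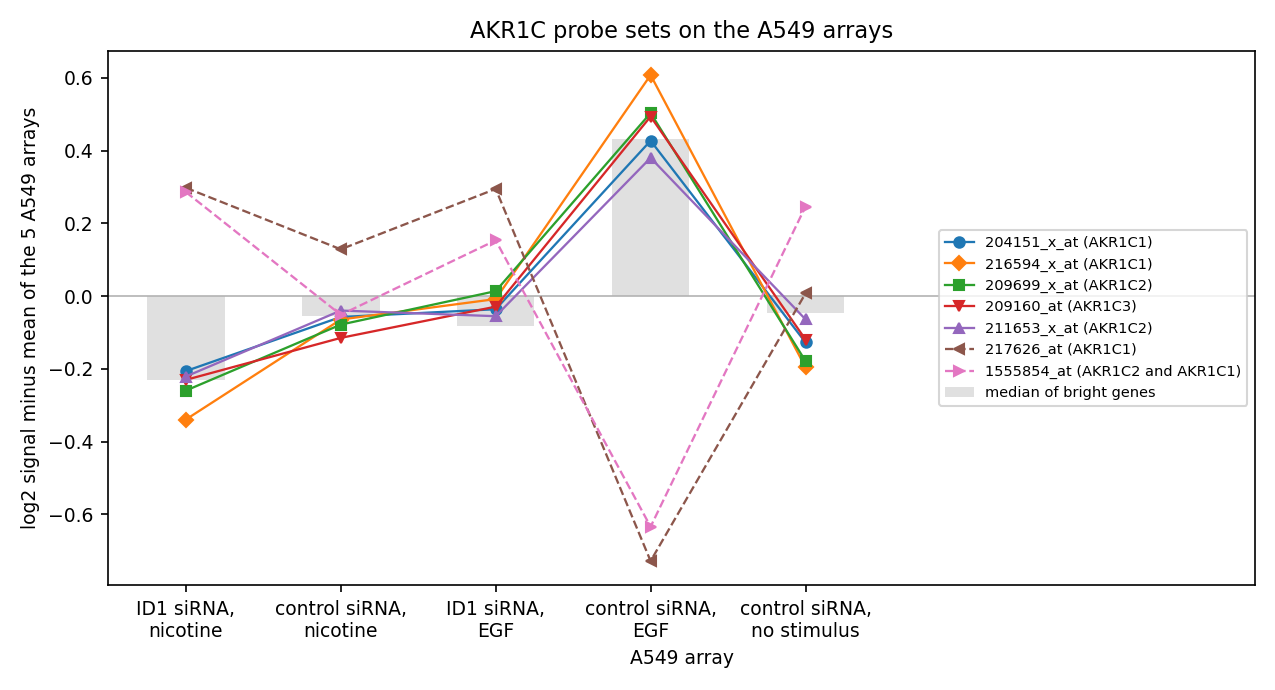
Log2 signal of 7 AKR1C probe sets on each A549 array, relative to the probe set's mean over the 5 A549 arrays, with dashed lines for probe sets whose mean signal was below 10000. Grey bars give the median of the 529 bright genes of A549, and the 5 bright AKR1C probe sets follow it on the array with control siRNA and EGF while the dashed AKR1C1 probe set and the shared one go the other way.

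ALDH1A1 and ALDH1A3 both oxidise retinal to retinoic acid, and they had opposite patterns between the lines. Their RefSeq promoters are shown side by side because of that contrast, with E-boxes in capitals as above. ALDH1A1 is at chr9:72953004-72953303 on the minus strand and ALDH1A3 at chr15:100879581-100879880 on the plus strand (GRCh38.p14). ALDH1A1 held 3 E-boxes and no GCGTG core, whereas ALDH1A3 held no E-box and 2 GCGTG cores. These motifs occur in 68.7% and 36.5% of all promoters, and their part in the contrast between the lines was not tested.
ALDH1A1: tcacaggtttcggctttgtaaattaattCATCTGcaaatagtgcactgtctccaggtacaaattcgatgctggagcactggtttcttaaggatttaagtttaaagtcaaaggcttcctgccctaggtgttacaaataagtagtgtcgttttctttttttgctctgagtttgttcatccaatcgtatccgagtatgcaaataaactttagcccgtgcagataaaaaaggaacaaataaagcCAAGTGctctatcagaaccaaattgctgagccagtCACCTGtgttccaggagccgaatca
ALDH1A3: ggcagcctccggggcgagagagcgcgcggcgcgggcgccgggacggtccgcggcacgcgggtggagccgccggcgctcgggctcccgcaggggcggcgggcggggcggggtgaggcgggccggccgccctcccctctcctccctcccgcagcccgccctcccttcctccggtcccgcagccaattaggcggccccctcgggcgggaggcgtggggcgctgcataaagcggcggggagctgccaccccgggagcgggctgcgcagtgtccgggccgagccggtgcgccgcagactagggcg

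ALDH1A1 had signals in A549 of 20975 with ID1 siRNA and nicotine, 22995 with control siRNA and nicotine, 22127 with ID1 siRNA and EGF, 34914 with control siRNA and EGF, and 24562 without a stimulus. In H1650 the signals were 3.74 with ID1 siRNA and nicotine, 17.8 with control siRNA and nicotine, 14.6 with ID1 siRNA and EGF, 2.72 with control siRNA and EGF, and 19.9 without a stimulus. All 5 H1650 values were below the array median, and their order there carries no information. ALDH1A1 was at least 321-fold higher in A549 (limma adjusted p = 3.51e-07).

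ALDH1A3 had signals in A549 of 678 with ID1 siRNA and nicotine, 896 with control siRNA and nicotine, 752 with ID1 siRNA and EGF, 1372 with control siRNA and EGF, and 814 without a stimulus. In H1650 the signals were 2491 with ID1 siRNA and nicotine, 2126 with control siRNA and nicotine, 2048 with ID1 siRNA and EGF, 2151 with control siRNA and EGF, and 2365 without a stimulus. The highest A549 array stayed below the lowest H1650 array. The log2 difference was -1.35 ± 0.16 (SE, limma adjusted p = 0.000116), so that ALDH1A3 was 2.55-fold lower in A549. Its A549 arrays varied by an SD of 0.39 on the log2 scale and its H1650 arrays by 0.12 (n = 5 each).

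ALDH3A1 oxidises aromatic and medium-chain aldehydes and is known to be induced by xenobiotics. In A549 its signal was 12961 with ID1 siRNA and nicotine, 24836 with control siRNA and nicotine, 15387 with ID1 siRNA and EGF, 39620 with control siRNA and EGF, and 19510 without a stimulus. Both ID1 siRNA arrays were below all 3 control siRNA arrays. In H1650 the 5 signals were at most 47.5, all below their array medians. ALDH3A1 was at least 269-fold higher in A549 (limma adjusted p = 2.58e-08).

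ALDH3A2, the fatty aldehyde dehydrogenase that is defective in Sjögren-Larsson syndrome, lies 60387 bases from ALDH3A1 on chromosome 17. In A549 it had signals of 4670 with ID1 siRNA and nicotine, 5290 with control siRNA and nicotine, 3901 with ID1 siRNA and EGF, 5984 with control siRNA and EGF, and 4037 without a stimulus. In H1650 it had 2382 with ID1 siRNA and nicotine, 2335 with control siRNA and nicotine, 2384 with ID1 siRNA and EGF, 2589 with control siRNA and EGF, and 2257 without a stimulus. The lines did not overlap, and the log2 difference was 0.98 ± 0.10 (SE, limma adjusted p = 4.76e-05), or 1.97-fold. Its other 2 probe sets differed by a log2 of 1.70 and 1.68 between the lines.

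ALDH3B1 is a membrane-bound enzyme for medium- and long-chain aldehydes. In A549 it had signals of 949 with ID1 siRNA and nicotine, 1972 with control siRNA and nicotine, 1177 with ID1 siRNA and EGF, 1678 with control siRNA and EGF, and 1406 without a stimulus. In H1650 it had 125 with ID1 siRNA and nicotine, 388 with control siRNA and nicotine, 216 with ID1 siRNA and EGF, 151 with control siRNA and EGF, and 509 without a stimulus. The lines did not overlap, with an SD of 0.42 on the log2 scale in A549 and 0.87 in H1650. The log2 difference was 2.53 ± 0.25 (SE, limma adjusted p = 3.65e-05), or 5.79-fold, and a second probe set gave 1.80. Signals of different probe sets are not set against each other here, since probes differ in how brightly they report the same amount of RNA.

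With ID1 siRNA in A549, ALDH3A1, ALDH1A3 and ALDH3A2 were lower than with control siRNA. The AKR genes had smaller values below 0 that did not pass. For AKR1C1 and AKR1C2 they turned to 0.54 and 0.42 with the mean of all their probe sets. In that mean, probe sets near background count as much as bright ones. Of AKR1C1, 1 such probe set gave 2.39 under nicotine and 3.95 under EGF, and another -0.25 and -0.40. Of AKR1C2, 1 such probe set gave 3.45 and 0.38. These turns therefore rest in part on signals without a readable size. All 9 members had a lower signal in both A549 pairs, where the median over all genes tested was 0.01 under nicotine and 0.08 under EGF. The share of all genes tested that was lower in both pairs was not counted. The limma fit on the 4 matched pairs called 3 of 9 members, all lower, beside 25.3% of all genes tested, 13.8% higher and 11.4% lower. The median log2 change was -0.40 over the 9 members and 0.05 over all genes tested. Without the A549 array with control siRNA and EGF, or without its ID1 siRNA partner, 0 members were called by limma, all 9 were still below 0, and the median change was -0.18. Without either array of the A549 nicotine pair 4 members were called, with AKR1B10 added, and without any 1 of the 4 stimulated H1650 arrays 7 were called. A fit without an array of the EGF pair rests on the nicotine pair alone in A549. Its 9 values below 0 are those of that pair and no separate check. The shift of the bright genes moved alongside: the 529 bright genes of A549 had a median change of -0.16 in the nicotine pair and -0.52 in the EGF pair. Of the 6 epithelial markers 2 rose and 0 fell, KRT19 by 0.60 and CDH1 by 0.47, with a median of -0.05 over the list. Of 3 tested markers of other cell types, COL1A1, a collagen gene of fibroblasts, rose by 1.14 ± 0.23 (SE, limma adjusted p = 0.00846). Without the A549 array with control siRNA and EGF 1 epithelial marker and none of the 3 others were called by limma. The part of these markers in the members' changes was not tested.

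ALDH3A1 fell by 1.15 ± 0.22 on the log2 scale (SE, limma adjusted p = 0.00594), with changes of -0.94 under nicotine and -1.36 under EGF. ALDH1A3 fell by 0.64 ± 0.14 (SE, limma adjusted p = 0.0108), with -0.40 and -0.87. ALDH3A2 fell by 0.40 ± 0.12 (SE, limma adjusted p = 0.0427), with -0.18 and -0.62. All 3 changes were larger in the EGF pair. Without an array of the EGF pair their adjusted p-values were 0.119 for ALDH3A1, 0.152 for ALDH1A3 and 0.486 for ALDH3A2. ALDH3A2 also lost its call under quantile normalization, where it stood at -0.25 (limma adjusted p = 0.121). Its other 2 probe sets gave -0.71 and -0.61 under nicotine and -0.64 and -0.58 under EGF in A549.

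AKR1B10 stood at -0.32 ± 0.12 (SE, limma adjusted p = 0.0773), with -0.11 under nicotine and -0.53 under EGF. AKR1C1, AKR1C2, AKR1C3 and ALDH1A1 stood at -0.31, -0.34, -0.32 and -0.40, with limma adjusted p between 0.064 and 0.764. Their changes in the nicotine pair lay between -0.18 and -0.12, close to the -0.16 of bright genes there, and in the EGF pair between -0.66 and -0.46, around the -0.52 of bright genes. Under quantile normalization the 5 bright genes other than ALDH3A1 stood between -0.04 and 0.05, whereas ALDH3A1 moved to -0.73 (limma adjusted p = 0.026) and ALDH1A3 at -0.72 (limma adjusted p = 0.0103). ALDH3B1 had -1.05 under nicotine and -0.51 under EGF, a mean of -0.78 ± 0.40 (SE) that did not pass (limma adjusted p = 0.19). Its second probe set gave -0.51 and -0.07. The fit takes the spread of a gene from both lines together, so the H1650 pairs also enter these SEs and p-values. In H1650 ALDH1A1 had -2.25 under nicotine and 2.43 under EGF, from signals below the array median. ALDH3B1 had -1.64 and 0.52 there.

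**Figure D3:**
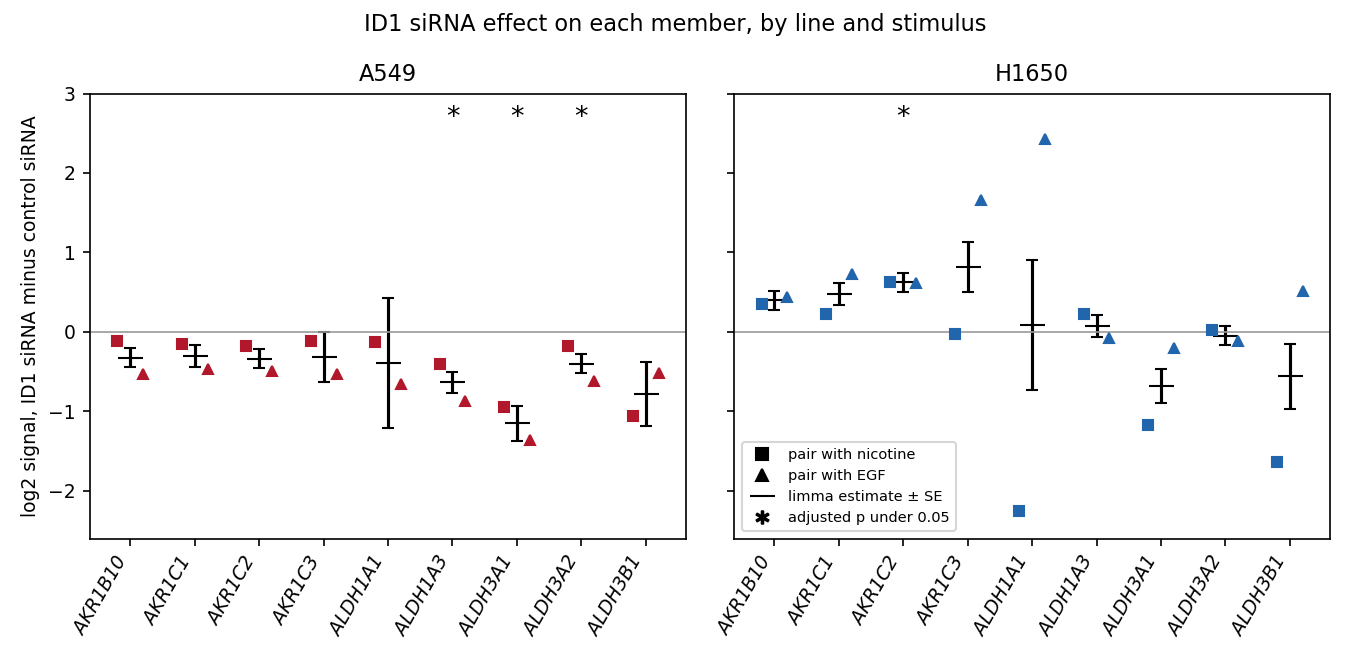
Log2 change of each measured gene with ID1 siRNA against control siRNA in the 4 matched pairs of line and stimulus, with the limma estimate of each line and its SE as error bar. In A549 both pairs lie below 0 for all 9 genes, and in H1650 AKR1B10, AKR1C1 and AKR1C2 lie above 0 in both pairs.

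With ID1 siRNA in H1650, AKR1B10, AKR1C1 and AKR1C2 had higher signals in both pairs, at signals of at most 498, and only AKR1C2 passed. It was the 1 of 9 members that limma called, beside 12.3% of all genes tested, 5.64% higher and 6.66% lower. AKR1C2 rose by 0.62 ± 0.12 on the log2 scale (SE, limma adjusted p = 0.0113), with 0.63 under nicotine and 0.62 under EGF. Its signals were 116 and 52.2 with ID1 siRNA, against 74.8 and 34.0 with control siRNA, with 3 of these 4 below the array median, and EGF against nicotine gave larger differences, -1.15 under ID1 siRNA and -1.14 under control siRNA. A second AKR1C2 probe set stood at 0.04 under nicotine and 0.22 under EGF. Without any 1 of the 4 stimulated A549 arrays 2 members were called in H1650, with AKR1B10 added, and without any 1 of the 4 stimulated H1650 arrays 4 were called.

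AKR1B10 stood at 0.40 ± 0.12 in H1650 (SE, limma adjusted p = 0.0626), with 0.35 under nicotine and 0.44 under EGF. AKR1C1 stood at 0.48 ± 0.14 (SE, limma adjusted p = 0.0589), with 0.23 and 0.73. Neither passed. AKR1C3, ALDH1A1 and ALDH3A1 were below the array median in H1650, so their changes there have no readable size. ALDH3B1 went opposite ways, -1.64 under nicotine and 0.52 under EGF, and ALDH1A3 and ALDH3A2 stayed between -0.12 and 0.23 in single pairs.

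The difference between the lines in the response to ID1 siRNA was tested directly. It passed for 4 of 9 members, all with a lower change in A549 than in H1650, beside 11.9% of all genes tested, 6.98% higher and 4.92% lower. AKR1B10 differed by -0.72 ± 0.17 (SE, limma adjusted p = 0.0275), AKR1C1 by -0.78 ± 0.20 (SE, limma adjusted p = 0.0368), AKR1C2 by -0.96 ± 0.16 (SE, limma adjusted p = 0.00787) and ALDH1A3 by -0.71 ± 0.19 (SE, limma adjusted p = 0.0471). Under quantile normalization the values were -0.44 for AKR1B10 (limma adjusted p = 0.0512), -0.38 for AKR1C1 (limma adjusted p = 0.226) and -0.54 for AKR1C2 (limma adjusted p = 0.0653), and ALDH1A3 kept its call at -0.80 (limma adjusted p = 0.0437). Without either array of the A549 EGF pair 0 members passed by limma, and without either array of the H1650 nicotine pair 6 passed. With probe sets that carry no _x_ or _s_ suffix in place of the usual ones, AKR1C1 turned to 1.24 (limma adjusted p = 0.151), and AKR1C2 had no such probe set among the genes tested.

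Averaged over both lines, limma called 1 of 9 members with ID1 siRNA, beside 24.2% of all genes tested, 13.1% higher and 11.1% lower. ALDH3A1 fell by 0.92 ± 0.15 on the log2 scale (SE, limma adjusted p = 0.00353) and was lower in all 4 pairs, but its H1650 signals were below the array median. The change was -0.81 (limma adjusted p = 0.0254) without either array of the A549 EGF pair. Without an array of the A549 nicotine pair or the H1650 EGF pair 3 members were called, and without an array of the H1650 nicotine pair 4 were.

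EGF and nicotine were compared with no stimulus under control siRNA, and with each other. No member and no other gene was called by limma in any of these 3 comparisons, that is 0% of 12514 genes. At an unadjusted p under 0.05, limma had 0 members among 189 genes (1.51%) for nicotine against no stimulus, 2 among 747 (5.97%) for EGF against no stimulus, and 1 among 412 (3.29%) for EGF against nicotine. The members were ALDH3A1 and ALDH3A2 for EGF against no stimulus, and ALDH3A1 for EGF against nicotine. The comparisons with no stimulus share the unstimulated arrays.

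ALDH3A1 with EGF against no stimulus stood at 1.27 ± 0.34 on the log2 scale (SE, limma adjusted p = 0.799), with 1.02 in A549, where the signal was 39620 with EGF and 19510 without a stimulus. In H1650 it stood at 1.52, with both signals below the array median. With nicotine against no stimulus ALDH3A1 stood at 0.58 ± 0.34 (SE), and its A549 signal was 24836 with nicotine and 19510 without a stimulus. With EGF against nicotine it stood at 0.82 ± 0.24 (SE, limma adjusted p = 1), with 0.67 under control siRNA and 0.25 under ID1 siRNA in A549. In H1650 these values were 0.71 and 1.67, from signals below the array median. The 529 bright genes of A549 had medians of 0.47 and 0.13 in the same A549 pairs. All differences of ALDH3A1 were above 0, but those in H1650 have no readable size, and none passed after adjustment.

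ALDH3A2 with EGF against no stimulus stood at 0.38 ± 0.16 (SE, limma adjusted p = 0.832), with 0.57 in A549 and 0.20 in H1650. In A549 all 9 members had a higher signal with EGF than without a stimulus, by log2 differences between 0.25 and 1.02 with a median of 0.60, and this comparison again rests on the array that stood apart. The 529 bright genes of A549 had a median of 0.48 in the same comparison, and all genes tested had a median of -0.03. In H1650 3 of the 9 members were higher with EGF and 6 lower, beside a median of -0.03 over all genes tested. AKR1B10 stood at -0.62 (239 with EGF, 368 without) and AKR1C1 at -1.31 (68.2 with EGF, 169 without). With nicotine, the A549 differences from no stimulus ran between -0.10 for ALDH1A1 and 0.49 for ALDH3B1. The 4 AKR genes stayed between -0.03 and 0.10 there.

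**Figure D4:**
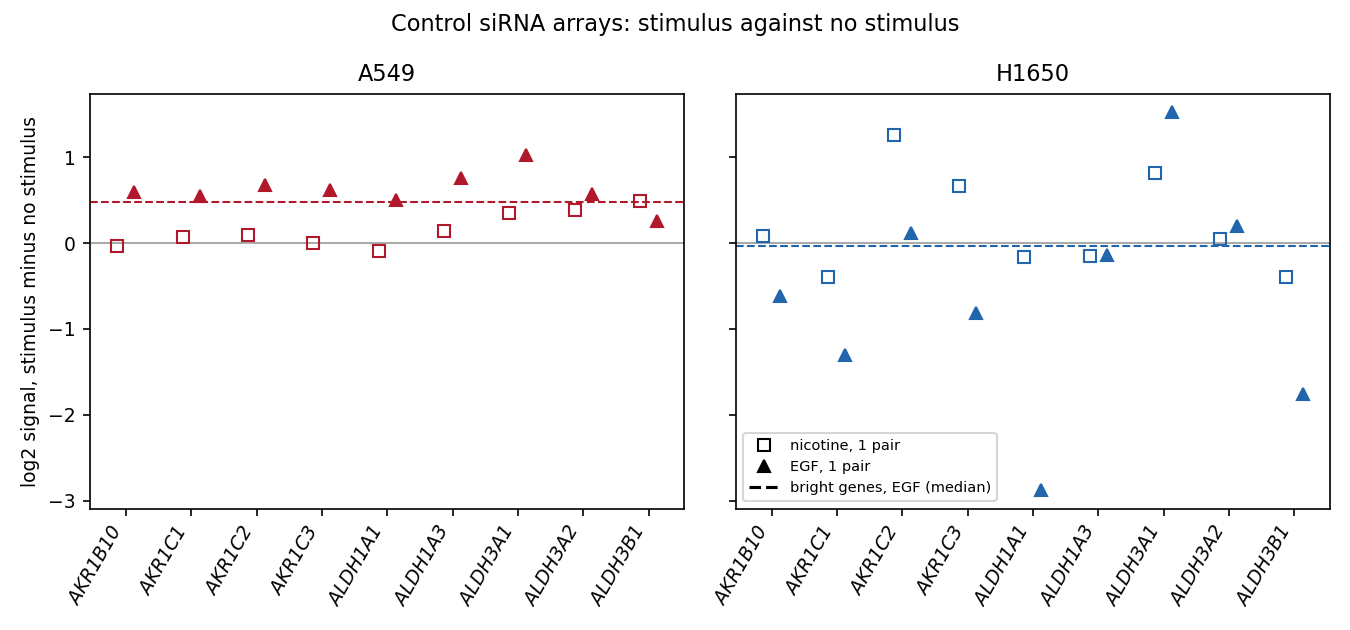
Log2 difference of each measured gene for nicotine and for EGF against no stimulus under control siRNA, 1 array pair per line and stimulus. In A549 all 9 genes lie above 0 with EGF, between 0.25 and 1.02, and with nicotine they lie between -0.10 and 0.49.

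Genes of related pathways were read from lists that leave out the members. GPX2, HPGD, ALDH3B2 and CYP26A1 reached the filter only through the line where they were higher. Their differences between the lines therefore follow in part from the filter. The counts between the lines stand beside 30.9% of all genes tested higher in A549 and 32.2% lower. Of 15 tested genes of NRF2 and its other targets, 13 were higher in A549 than in H1650 and 0 lower, with a median log2 difference of 1.91 (15 higher after array-median centring). The selenoprotein GPX2 stood at least 233-fold higher, and UGDH, which makes UDP-glucuronate, was higher by 3.36 ± 0.09 on the log2 scale (SE, limma adjusted p = 4.71e-08). GCLC, of glutathione synthesis, and SLC7A11, the cystine importer, were higher by 3.13 and 2.97. NFE2L2, the gene of NRF2 itself, stood at 0.14 and KEAP1 at 0.23, and neither passed.

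Of 12 other aldehyde dehydrogenases tested, 7 were higher and 1 was lower in A549. ALDH2, the mitochondrial enzyme of ethanol metabolism, was 27.8-fold higher, with signals between 4805 and 5397 in A549 against 131 to 219 in H1650. ALDH3B2, a close relative of ALDH3B1, was at least 9.35-fold lower in A549. Of 3 other aldo-keto reductases, AKR1E2 was higher by 1.04 and AKR7A2 and AKR7A3 were lower by a log2 of -1.06 and -0.72.

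Of 13 genes of retinoid metabolism and response, 2 were higher and 8 lower in A549, and the median was -1.02 on the log2 scale (7 lower after array-median centring). CRABP2, which carries retinoic acid, stood at -5.89 ± 0.09 (SE, limma adjusted p = 7.42e-09), and the retinol and retinal dehydrogenases DHRS9 and DHRS3 at -4.64 and -2.49. RDH10, which makes retinal, was higher by 2.36. Of 8 prostaglandin and steroid enzymes, 4 were higher and 2 lower: HPGD, which breaks prostaglandins down, was at least 189-fold higher, and PTGS2, which makes their precursor, stood at 6.99 ± 0.14 (SE, limma adjusted p = 1.6e-08). PTGES and SRD5A1 were lower, by log2 values of -2.99 and -2.07.

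The smaller lists split between directions. Of 5 genes of the aryl hydrocarbon receptor axis, 2 were higher and 2 lower in A549, with AHRR at 0.87 and AHR at -0.61. Of 4 fatty aldehyde and sphingolipid enzymes, 2 were higher and 1 lower, and of 3 polyol and osmotic genes 1 was higher and 2 were lower.

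**Figure D5:**
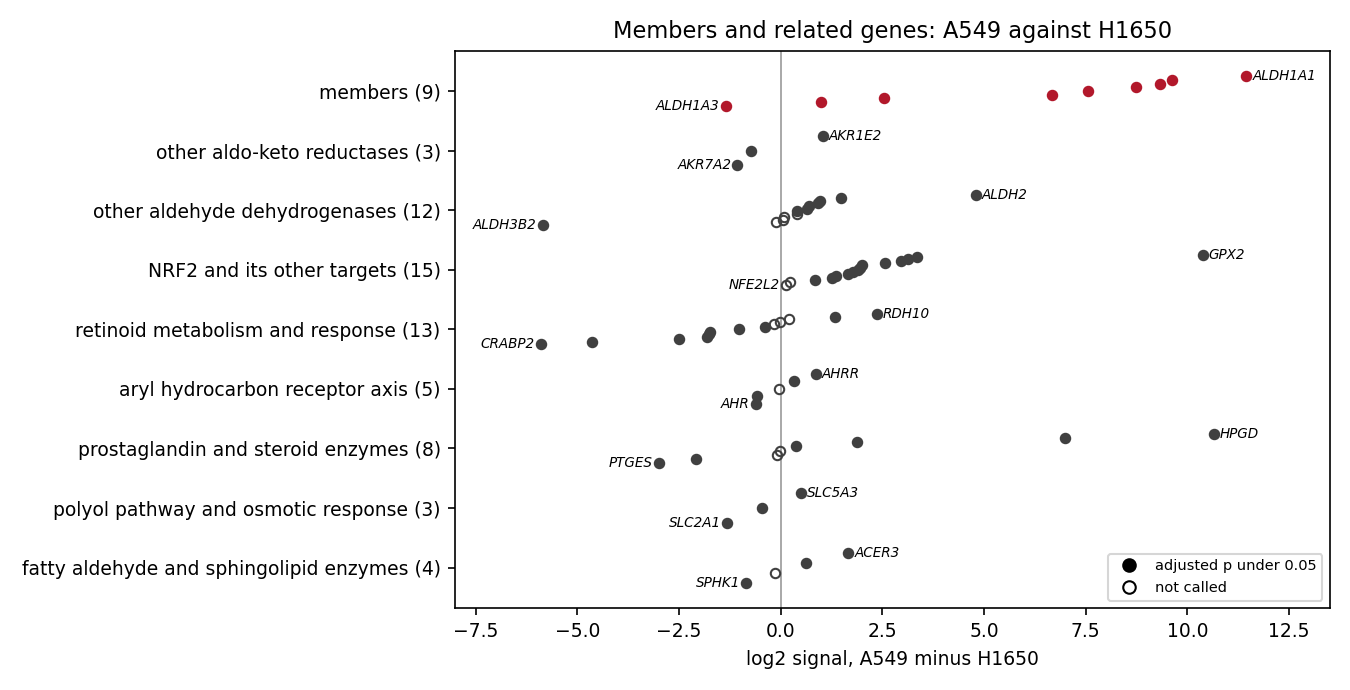
Log2 difference in signal, A549 minus H1650, for the measured members (red) and for genes of related lists, 1 point per gene, filled where the limma adjusted p was under 0.05. Points for genes below the array median on all 5 arrays of the lower line, such as ALDH1A1, GPX2 and HPGD, stand for bounds only and have no order, and genes of NRF2 and its other targets lie at or above 0.14.

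With ID1 siRNA in A549, 6 of the 15 NRF2 genes fell and 1 rose, beside 11.4% of all genes tested lower and 13.8% higher. GCLC fell by 0.85 ± 0.10 on the log2 scale (SE, limma adjusted p = 0.000852), PGD by 0.69, SRXN1 by 0.65 and NQO1 by 0.56, while the haem oxygenase HMOX1 rose by 0.48. Without the A549 array with control siRNA and EGF 2 of them fell and 0 rose, and after array-median centring, which moves the median of all genes to -0.23, 11 fell. Of 12 other aldehyde dehydrogenases 3 fell and 1 rose: ALDH4A1 fell by 1.09, ALDH6A1 by 0.63 and ALDH9A1 by 0.45, and ALDH1L2 rose by 1.03. Without that array 0 of these 12 were called by limma. AKR7A2 fell by 0.98 ± 0.10 (SE, limma adjusted p = 0.000414), and it also fell in H1650, by 0.44.

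Of the 13 retinoid genes 5 rose and 1 fell with ID1 siRNA in A549, beside 13.8% of all genes tested higher and 11.4% lower. TGM2, a transglutaminase induced by retinoic acid, rose by 1.57 ± 0.12 on the log2 scale (SE, limma adjusted p = 6.3e-05), DHRS9 by 1.38 and RARRES1 by 1.08, and CYP26B1, which degrades retinoic acid, fell by 0.52. Without the array with control siRNA and EGF 3 rose and 0 fell. In H1650 1 of the 13 rose and 1 fell, RDH10 by 0.57 and TGM2 by 0.54. These counts are near the shares of all genes tested there, 5.64% higher and 6.66% lower. The difference between the lines passed for TGM2, at 2.10 ± 0.17 (SE, limma adjusted p = 0.000149). CYP1B1, a target of the aryl hydrocarbon receptor, rose by 0.86 in A549 and by 0.55 in H1650.

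Over the 10 arrays, after each line's mean was taken off, the genes whose log2 signals ran most like ALDH3A1 were PSMD14 (Pearson r = 0.924), UAP1 (0.920) and GSTO1 (0.920). For AKR1B10 they were PCCB (0.946), FAM89B (0.925) and GPX4 (0.924), for ALDH1A3 TSEN34 (0.962), CRIP1 (0.962) and GABARAP (0.961), and for ALDH3A2 RPF2 (0.965), ZC3H15 (0.954) and FAM118A (0.939). These were picked as the highest among the genes tested, and arrays share their scaling, so they are descriptions. Among the members themselves AKR1B10 and AKR1C1 had r = 0.874, and AKR1B10 and ALDH3A1 had r = -0.227. The H1650 arrays enter every r, and ALDH3A1 was below the array median on all of them. This limits each r of ALDH3A1, also those with PSMD14, UAP1 and GSTO1. In A549 AKR1B10 and ALDH3A1 were both brightest with control siRNA and EGF and both dimmest with ID1 siRNA and nicotine.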

How the data were processed

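Transcript levels were measured in 10 total RNA samples, 5 per line, on Affymetrix U133 Plus 2.0 arrays. The authors deposited linear MAS5 signal intensities, made with GCOS 1.4 and MAS5 per the submitters' processing notes, scaled to a 2% trimmed mean of 500 on each array as the values show. Although the labels name a log2 step, the deposited table is linear, and log2 was taken here. Detection calls and the siRNA sequence were not used here, and the annotation used by the authors is not given in the sources used here. The array has 54675 probe sets. Left out were 62 controls, 11721 that the platform annotation gives no gene and 1801 that it gives more than 1, and 41037 of the remaining 41091 matched a RefSeq gene.

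The brightest probe set of each of 19775 genes was kept, and 12514 whose mean log2 signal reached 6.06, the median over probe sets, were tested with limma 3.58.1 in R 4.3.3, with an intensity trend and Benjamini-Hochberg adjustment over all of them (a call is an adjusted p under 0.05). A fit of line and condition to the 10 arrays had 4 residual degrees of freedom and gave the comparisons of lines and stimuli. The siRNA comparisons came from the 8 stimulated arrays, with the 4 pairs matched by line and stimulus as blocks. An siRNA term was fitted within each line, and both lines shared the estimate of the spread, with 2 residual degrees of freedom. A fold against a line that was below the array median on all 5 arrays was computed against that median and is written as at least. The number of arrays limits the precision.

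All members are named, and from each related list at most the 4 genes with the largest change that passed. NFE2L2, KEAP1, HMOX1, CYP26A1, CYP26B1 and the cell markers were named outside this rule, after their values were seen. The members and lists were chosen with earlier results of these data known. Alternatives were other scalings, filters, probe sets, an offset of 16, no intensity trend, no replicate block and leaving out each array; cyclic loess scaling and the list counts under other scalings were chosen after seeing the data. Promoters came from RefSeq on GRCh38.p14, and the test scripts were checked on simulated data.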

Additional observations from a re-analysis of the deposited data

Results flagged for a closer look

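The response to ID1 siRNA differed between the lines for 4 members in a direct test of the difference (limma, 8 arrays), as the change in A549 minus the change in H1650 on the log2 scale. The values were -0.7206 for AKR1B10, -0.7841 for AKR1C1, -0.9591 for AKR1C2 and -0.7141 for ALDH1A3. AKR1B10, AKR1C1 and AKR1C2 were lower in both A549 pairs and higher in both H1650 pairs, while ALDH1A3 was lower in both A549 pairs and had 0.23 and -0.07 in H1650. In A549 the first 3 are among the genes with signals over 10000, which had median changes of -0.16 and -0.52 in the pairs, and AKR1C2 in H1650 lies near the array median. Under quantile normalization the differences were -0.44 for AKR1B10, -0.38 for AKR1C1, -0.54 for AKR1C2 and -0.80 for ALDH1A3, and only the last passed. The part of the dim signals in the differences was not tested.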

How the results depend on the processing

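All 9 line calls held under every alternative that tested 9 members, and 8 of 8 with probe sets free of _x_ or _s_ suffixes; all stimulus comparisons stayed at 0 members called. The siRNA counts moved. Under quantile normalization 2 members were called within A549, and 2 under cyclic loess. Within A549, 3 members were called in the reported fit, 7 after array-median centring, 0 without the intensity trend, 1 without the replicate block, and 0 to 7 on leaving out each array. Within H1650, against 1, there were 3 under quantile normalization, 2 under cyclic loess, 2 after centring, 4 with a filter at the 75th percentile, 0 with the mean of all probe sets, with probe sets free of suffixes, without the trend and without the replicate block, and 2 to 4 on leaving out each array. For the difference between lines, against 4, there were 1 under quantile normalization and with probe sets free of suffixes, 2 without a filter, 0 with the mean of probe sets, without the trend and without the replicate block, and 0 to 6 on leaving out each array. For the mean of both lines, against 1, there were 2 under quantile normalization, with the stricter filter and with the mean of probe sets, 4 after centring, 0 without the trend, and 1 to 4 on leaving out each array. Centring moved the median of all genes to -0.23 within A549 and to 0.12 between lines. Of the 36 member values of the siRNA comparisons, 12 changed sign under at least 1 setting other than leaving out an array, none past the threshold. The largest turn was AKR1C1 in the difference (1.24 without suffixes). On leaving out single arrays 12 changed sign, 4 of them past the threshold, namely ALDH1A1 in the mean of lines (-1.32 to 1.02), within H1650 (-2.25 to 2.43) and in the difference (-2.82 to 1.86), and ALDH3B1 in the difference (-1.30 to 0.85). The other 8 ran, within H1650, between -1.64 and 0.52 for ALDH3B1, -0.02 and 1.66 for AKR1C3, -0.07 and 0.23 for ALDH1A3 and -0.12 and 0.03 for ALDH3A2, in the mean of lines between -0.17 and 0.67 for AKR1C3, -0.07 and 0.14 for AKR1B10 and -0.04 and 0.21 for AKR1C1, and in the difference between -0.95 and 0.01 for ALDH3A1. ALDH1A1 is dim in H1650, and such a fit has 1 pair in that line, assumed to vary like the other. The cause of the other changes was not tested.

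The matched pairs follow line and stimulus, since each group has 1 array. With a floor at the 25th percentile the bounds for AKR1C3, ALDH1A1 and ALDH3A1 were 639-fold, 1288-fold and 722-fold. Signal over background limits H1650: AKR1C3, ALDH1A1 and ALDH3A1 have no readable level there. No group has replicate arrays.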
